A study of Mus musculus with 5 samples.

Results

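The genes described here are 10 adhesion molecules of leukocytes and of the cells they bind: the integrin alpha chains *Itgal*, *Itgam* and *Itga4*, the beta chains *Itgb2*, *Itgb7* and *Itgb1*, the selectin ligand *Selplg*, and the integrin ligands *Icam1*, *Vcam1* and *Madcam1*. They were taken by symbol from a table of 47729 genes. The 10 symbols stand on 11 entries, because a second gene identifier also carries the name *Itgam*, and that entry had 0 counts in all 5 libraries. RNA was sequenced from dermal group 2 innate lymphoid cells (dILC2s), tissue-resident lymphocytes that make type-2 cytokines, freshly sorted from mouse skin without ex vivo stimulation. The sort kept viable CD45+ CD90hi cells without surface CD2 and CD3. The comparison was between 3 pools from wild-type mice (WT, B6; pools 5, 6 and 13) and 2 pools from RAG1-/- mice on the same background (pools 2 and 7), which lack mature T and B cells in every tissue. All mice were female C57BL/6 of 8 to 13 weeks. By the methods each WT pool held the cells of 10 mice and each *Rag1*-/- pool those of 9 mice, or 18 in all, whereas the labels count 30 WT and 16 *Rag1*-/- mice. The cell type label of both *Rag1*-/- libraries reads innate lymphoid cells type 3, although the protocol names dILC2s for all libraries.

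Integrins are heterodimers of an alpha and a beta chain that leukocytes use to hold on to vessels, matrix and other cells. LFA-1 pairs *Itgal* with *Itgb2* and binds ICAM-1, Mac-1 pairs *Itgam* with *Itgb2*, VLA-4 pairs *Itga4* with *Itgb1* and binds VCAM-1, and alpha4beta7 pairs *Itga4* with *Itgb7* and binds MAdCAM-1. *Itgb7* also pairs with *Itgae* (CD103), which binds E-cadherin and is carried by lymphocytes of the skin. P-selectin glycoprotein ligand 1, the product of *Selplg*, lets leukocytes roll on selectins before integrins stop them.

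Levels are given as CPM, the count of a gene per 1000000 counts on genes of its library. Values of single libraries are listed in the order of pools 5, 6 and 13 for WT and pools 2 and 7 for labelled *Rag1*-/-. The libraries held 32939428 to 39477243 counts in WT, 8050562 in *Rag1*-/- pool 2 and 38922750 in pool 7. A count of 3 corresponds to at most 0.0911 CPM in WT and pool 7 and to 0.373 CPM in pool 2, for counting error only. *Rag1* itself was counted 0 to 5 times per WT library, against 5 and 48 times in pools 2 and 7, higher rather than lower (log2 fold change 3.53, adjusted p = 0.0866 by edgeR). The sources used here do not say which bases the allele lacks, so these pools are called labelled *Rag1*-/- below. The summed CPM of 34 pan-leukocyte genes was 1034 to 2476 in WT and 6699.6 to 7887 in labelled *Rag1*-/-, with *Evi2b* at 0 to 1 counts in each library. The sum of 30 keratinocyte genes went the other way, from 38620.4 to 55400.5 CPM in WT to 9368 and 22753 CPM in pools 2 and 7, with no gene at 0. ILC2 markers summed to 1354 to 2715 CPM in WT and to 7052 and 4557 CPM in pools 2 and 7, and none of these 18 genes was at 0. The 11 ILC3 markers summed to 228 to 259 CPM in WT and to 617 and 469 CPM in pools 2 and 7. The part of these differences in the results was not tested, and in such bulk samples fewer cells of a type and less RNA per cell cannot be told apart.

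Of the 10 adhesion genes, 5 were called higher in labelled *Rag1*-/- than in WT and 0 were called lower. The 5 were *Itgal*, *Itgb2*, *Itgb7*, *Selplg* and *Madcam1*. *Madcam1* had 0, 1 and 1 counts in the WT pools and so passed the filter for testing only through the labelled *Rag1*-/- pools. A call required an adjusted p under 0.05 in edgeR's quasi-likelihood test over all 19011 genes tested and an absolute log2 fold change above 1. By this rule 3.57% of all genes were called higher and 2.16% lower. The log2 fold change was above 0 for 7 of the 10 genes and for 51.4% of all genes, with medians of 1.36 and 0.02. *Madcam1* was not tested with at least 10 counts required in every library or with thinning. The medians of the 9 genes left were then 0.57 and 0.67. The same 5 genes were called with DESeq2 (4.02% of all genes higher), limma on the deposited signal (3.20%), RLE scaling (3.32%), library size alone (3.33%) and no filter (3.87%). With at least 10 counts in every library (6.06%), with thinning to the shallowest library (5.26%) and without *Rag1*-/- pool 7 (4.07%), the 4 called were those other than *Madcam1*, which was then not tested. None of the 5 genes kept its call in edgeR when any one WT pool was left out (adjusted p 0.0543 to 0.114) or when *Rag1*-/- pool 2 was left out (adjusted p 0.0659 to 0.0745). Their log2 fold changes, *Madcam1* aside, stayed between 1.85 and 2.74 with each library left out. In the 4 fits without a call 0 genes (0.00%) of the whole table were called, while 3521 to 5200 had an unadjusted p under 0.05. The methods describe the pools as independent biological replicates, but the labels do not say whether they were sorted on separate days. The p-values therefore measure only the spread between these pools, which may be technical in part.

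**Figure D1:**
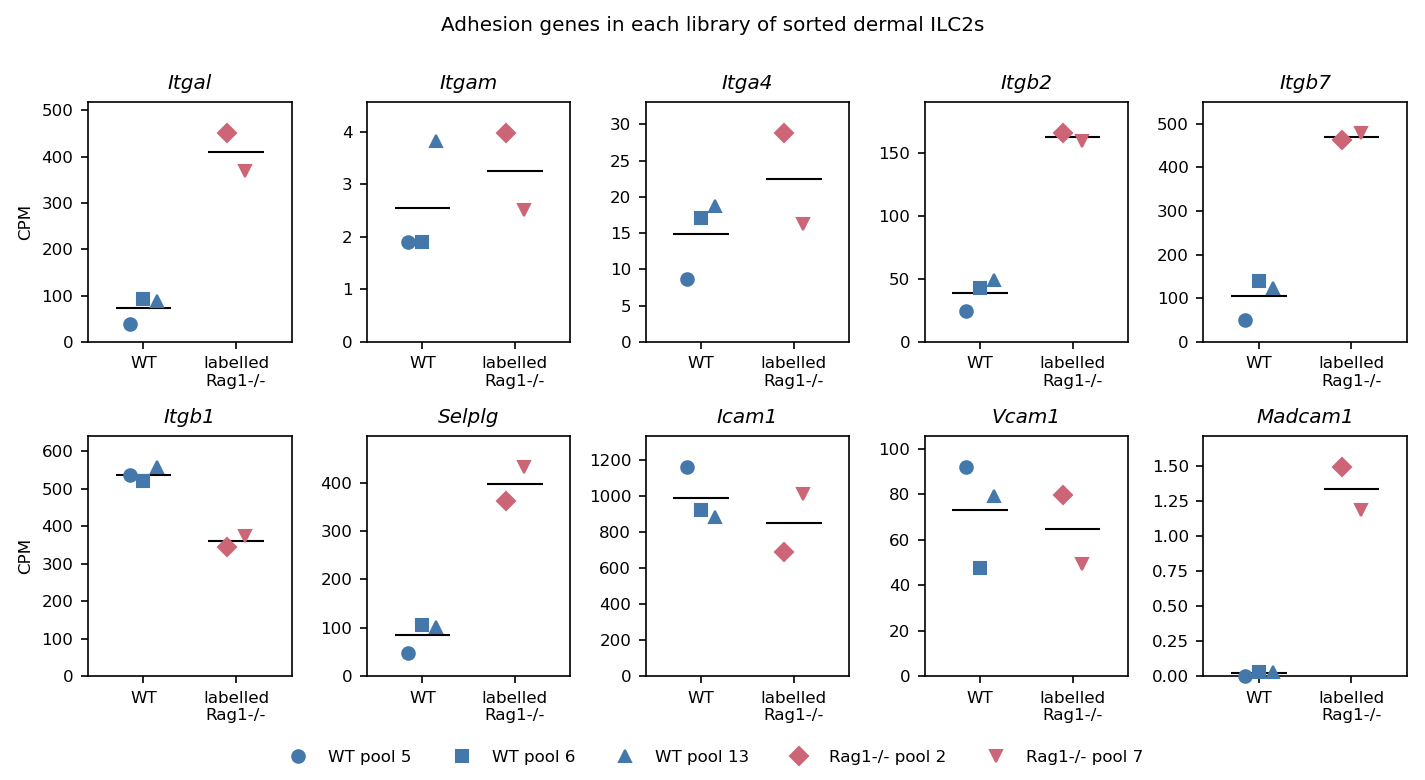
CPM of each of the 10 adhesion genes (vertical axes, linear, 1 panel per gene) in the 3 WT and the 2 labelled *Rag1*-/- pools, with 1 point per pool and a bar for the mean of each group. *Itgal*, *Itgb2*, *Itgb7*, *Selplg* and *Madcam1* lie higher in both labelled *Rag1*-/- pools, *Itgb1* lies lower, and the groups overlap in the other 4 genes.

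The alpha chains differed from one another. *Itgal* (chromosome 7, 127296260 to 127335138, GRCm38), the alpha chain of LFA-1, was at 37.7, 93.3 and 89.1 CPM in WT and at 451 and 369.5 CPM in labelled *Rag1*-/-. Both labelled *Rag1*-/- pools were above every WT pool, and WT pool 5 was the lowest. The mean was 73.3 ± 31.0 CPM (SD, n = 3) in WT and 410.4 ± 57.9 CPM (SD, n = 2) in labelled *Rag1*-/-, a log2 fold change of 2.51 (SE 0.39, adjusted p = 0.0306 by edgeR).

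*Itgam*, the alpha chain of Mac-1, marks myeloid cells and some innate lymphocytes. It was at 1.91, 1.90 and 3.83 CPM in WT (74, 75 and 126 counts) and at 3.97 and 2.52 CPM in labelled *Rag1*-/- (32 and 98 counts). The groups overlapped, since pool 7 lay within the WT range. The log2 fold change was 0.36 (SE 0.47, adjusted p = 0.687 by edgeR). Of its 5024 exonic bases, 3450 are shared with the gene on the same strand whose entry had 0 counts, and how reads on both genes were counted is not given in the sources used here, so the level of *Itgam* is uncertain. The 16 myeloid markers summed to 477 to 1084 CPM in WT and to 512 and 1010 CPM in pools 2 and 7, with *Ly6g* at 0 in all 5 libraries and 0 of 15 tested genes called. Of these sums *Cd207* alone held 177, 140 and 608 CPM in WT and 316 and 493 CPM in pools 2 and 7. The median log2 fold change of the list was -0.05, but -1.22 without pool 7 and 0.64 without pool 2, so it rests on single libraries.

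*Itga4* (chromosome 2, 79255426 to 79333123), the alpha chain of both VLA-4 and alpha4beta7, was at 8.66, 17.1 and 18.8 CPM in WT and at 28.8 and 16.2 CPM in labelled *Rag1*-/-. Pool 2 was the highest and pool 7 lay between the WT values. The log2 fold change was 0.61 (SE 0.39, adjusted p = 0.367 by edgeR). An unstranded kit was used, and *Itga4* shares 1124 exonic bases with *Cerkl* on the opposite strand, which had 6 to 26 counts per library against 232 to 675 for *Itga4*.

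Among the beta chains, *Itgb2* and *Itgb7* rose and *Itgb1* did not pass the test. *Itgb2* (CD18; chromosome 10, 77530252 to 77565708), the chain that all leukocyte-restricted beta2 integrins share, was at 24.5, 43.0 and 49.1 CPM in WT and at 166 and 160.1 CPM in labelled *Rag1*-/-. The labelled *Rag1*-/- pools lay close to each other and above all WT pools. The means were 38.9 ± 12.8 CPM (SD, n = 3) and 163 ± 4.30 CPM (SD, n = 2), a log2 fold change of 2.10 (SE 0.30, adjusted p = 0.0306 by edgeR).

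*Itgb7* (chromosome 15, 102215995 to 102231935, minus strand), the partner of *Itga4* and *Itgae*, was at 50.8, 139.8 and 124 CPM in WT and at 461 and 478 CPM in labelled *Rag1*-/-. Again no WT pool reached the labelled *Rag1*-/- pools, and WT pool 5 was the lowest. The means were 105 ± 47.6 CPM (SD, n = 3) and 469.9 ± 12.1 CPM (SD, n = 2), a log2 fold change of 2.19 (SE 0.41, adjusted p = 0.0339 by edgeR).

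*Itgb1* (chromosome 8, 128685654 to 128733200), a beta chain that nearly all nucleated cells express, keratinocytes and fibroblasts included, was at 535, 519 and 557 CPM in WT and at 344 and 374 CPM in labelled *Rag1*-/-. The groups did not overlap, as was so for 24.0% of all tested genes in the lower direction. The means were 537 ± 19.0 CPM (SD, n = 3) and 359 ± 21.5 CPM (SD, n = 2), and the log2 fold change of -0.55 (SE 0.20) had an adjusted p of 0.143 by edgeR. DESeq2 gave -0.59 with an adjusted p of 0.0381, still under the fold required for a call. The keratinocyte sum was lower in the same libraries, and its part here was not tested.

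*Selplg* (chromosome 5, 113818536 to 113832644, minus strand) was at 47.1, 105.5 and 100.8 CPM in WT and at 362 and 432 CPM in labelled *Rag1*-/-. Every labelled *Rag1*-/- value was above every WT value, and WT pool 5 was once more the lowest. The means were 84.5 ± 32.4 CPM (SD, n = 3) and 397 ± 49.6 CPM (SD, n = 2), a log2 fold change of 2.27 (SE 0.36, adjusted p = 0.0306 by edgeR). Higher values without overlap were found in 21.9% of all tested genes, and in 5 of the 10 adhesion genes. These 5 include *Madcam1*, which passed the filter for testing only through the labelled *Rag1*-/- pools.

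The integrin ligands gave a mixed picture. *Icam1* (chromosome 9, 21015960 to 21028797), the LFA-1 ligand that endothelium, epithelium and leukocytes all display, was at 1159, 919.7 and 882 CPM in WT and at 687 and 1011 CPM in labelled *Rag1*-/-. The labelled *Rag1*-/- pools lay on either side of the WT median, and the log2 fold change was -0.18 (SE 0.28, adjusted p = 0.741 by edgeR). *Vcam1* (chromosome 3, 116109949 to 116129688, minus strand), the VLA-4 ligand of activated endothelium and stroma, was at 91.9, 47.6 and 79.2 CPM in WT and at 79.9 and 49.1 CPM in labelled *Rag1*-/-. The groups overlapped, with a log2 fold change of -0.15 (SE 0.32, adjusted p = 0.815 by edgeR). Both genes overlap an antisense gene, over 511 exonic bases for *Icam1* and 61 for *Vcam1*, which an unstranded kit cannot separate. The one at *Vcam1* had 0 to 4 counts per library against 643 to 3567 for *Vcam1*, and the one at *Icam1* was not analysed here. The log2 fold change of *Icam1* was 0.11 without pool 2, and that of *Vcam1* was 0.047 without WT pool 5 and 0.073 without pool 7, so both signs rest on single libraries.

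*Madcam1* (chromosome 10, 79664574 to 79668536), the ligand of alpha4beta7 best known from the vessels of the gut, stood at the limit of detection in WT. Counts were 0, 1 and 1 in WT, against 12 and 46 (1.49 and 1.18 CPM) in labelled *Rag1*-/-. Thus all WT libraries were at or under 3 counts and both labelled *Rag1*-/- libraries above. Pooled, there were 2 of 111212864 counts in WT and 58 of 46973312 in labelled *Rag1*-/-, a ratio of 68.7 with an exact 95% interval of 18.2 to 580.4 that covers counting error only. edgeR called it with an adjusted p of 0.0306, but with at least 10 counts required in every library, with all libraries thinned to the shallowest, or without *Rag1*-/- pool 7 it was not among the genes tested. Of 17 endothelial markers 0 were called, 1 had a positive log2 fold change, and their sum was 561 to 970.1 CPM in WT and 317 and 583 CPM in pools 2 and 7, with none at 0.

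RefSeq gave a promoter window for 6 of the 10 genes (build GRCm38.p6, 250 bases upstream of the start), and *Itgal*, *Itgb2*, *Selplg* and *Vcam1* were not matched. Shown here are the windows of *Madcam1* and *Itgb7*, the called genes among them, and of *Itgb1*, the beta chain without a call. They lie at chr10:79664309-79664558 (plus strand), chr15:102231936-102232185 (minus strand) and chr8:128685404-128685653 (plus strand), and are printed 5′ to 3′ along the gene. Capitals mark matches on either strand to the 10-base NF-kappa B consensus or to a short core. The ETS core searched was AGGAAG and the SP1 core was GGGCGG. Also searched were TGTGGT for RUNX, CACTTNA for NKX2 and AGATAA for GATA.
Madcam1: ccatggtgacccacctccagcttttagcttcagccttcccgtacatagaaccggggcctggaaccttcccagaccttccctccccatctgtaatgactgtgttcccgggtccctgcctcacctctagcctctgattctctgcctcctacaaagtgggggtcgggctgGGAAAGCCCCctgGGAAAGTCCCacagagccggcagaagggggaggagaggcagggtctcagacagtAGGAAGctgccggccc
Itgb7: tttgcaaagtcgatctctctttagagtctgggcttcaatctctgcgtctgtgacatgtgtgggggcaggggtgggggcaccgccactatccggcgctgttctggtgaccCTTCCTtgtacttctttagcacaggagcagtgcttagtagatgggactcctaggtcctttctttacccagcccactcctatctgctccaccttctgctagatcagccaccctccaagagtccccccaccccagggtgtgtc
Itgb1: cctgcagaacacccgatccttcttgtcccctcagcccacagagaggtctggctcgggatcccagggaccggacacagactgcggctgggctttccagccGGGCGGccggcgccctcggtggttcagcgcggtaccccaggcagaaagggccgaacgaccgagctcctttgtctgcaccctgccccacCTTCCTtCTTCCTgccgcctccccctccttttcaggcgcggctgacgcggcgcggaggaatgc

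The *Madcam1* window held 2 NF-kappa B matches, at bases -83 to -74 and -70 to -61 from the start, and 1 ETS match at -16 to -11. In all 32851 promoter windows, 3.90% held an NF-kappa B match and 29.5% an ETS match. The *Itgb7* window held 1 ETS match at -141 to -136. The *Itgb1* window held 2 ETS matches, at -63 to -58 and -56 to -51, and 1 SP1 match at -151 to -146. Of the 6 windows, 1 held an NF-kappa B match, 4 an ETS match, 4 an SP1 match and 1 a RUNX match, against 32.7% of all windows for SP1 and 14.0% for RUNX. NKX2 and GATA letters were in 0 of the 6 windows and in 10.1% and 9.99% of all windows. No printed match overlapped another. GC content was 61.2% for *Madcam1*, 56.0% for *Itgb7* and 68.0% for *Itgb1*, with a median of 52.4% over all windows. These are matches of letters only.

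Levels of different genes were compared per kilobase of exon (CPM per kb). In WT the mean level was highest for *Icam1* (226), followed by *Itgb1* (132), *Itgb7* (37.9), *Selplg* (19.8), *Itgb2* (12.7), *Itgal* (11.2), *Vcam1* (8.22), *Itga4* (1.06), *Itgam* (0.506) and *Madcam1* (0.0129). The ranges over the WT pools overlapped between neighbours from *Itgb7* down to *Vcam1* and between *Itga4* and *Itgam*, and lay apart for the other neighbours. In labelled *Rag1*-/- the order of mean levels was *Icam1* (195), *Itgb7* (169.6), *Selplg* (92.9), *Itgb1* (87.9), *Itgal* (62.5), *Itgb2* (53.5), *Vcam1* (7.27), *Itga4* (1.61), *Madcam1* (0.931) and *Itgam* (0.646) CPM per kb. There the ranges overlapped between *Icam1* and *Itgb7* and between *Selplg* and *Itgb1*. Thus *Itgb7* was below *Itgb1* in all WT pools and above it in both labelled *Rag1*-/- pools on this scale.

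Ratios of counts of partner chains within a library do not depend on how libraries are scaled. With 3 pools against 2 there are 10 splits, so the exact two-sided permutation test cannot go below p = 0.1, and of 21 ratios none could reach 0.05. *Itgal* had 154, 217 and 181 counts per 100 counts of *Itgb2* in WT and 272 and 231 in labelled *Rag1*-/-. The ratio of the LFA-1 chains was 1.37-fold higher in labelled *Rag1*-/-, without overlap (exact p = 0.2, adjusted 0.233). *Itgam* had 7.83, 4.45 and 7.82 counts per 100 counts of *Itgb2* in WT and 2.43 and 1.58 in pools 2 and 7. Both labelled *Rag1*-/- values were below every WT value, a fold of 0.302 (exact p = 0.1, adjusted 0.15).

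The alpha4 chain was set against each of its beta chains. *Itga4* had 17.1, 12.2 and 15.1 counts per 100 counts of *Itgb7* in WT and 6.26 and 3.39 in labelled *Rag1*-/- (fold 0.314, exact p = 0.1, adjusted 0.15). Per 100 counts of *Itgb1* it had 1.62, 3.30 and 3.38 counts in WT and 8.40 and 4.34 in pools 2 and 7 (fold 2.30, exact p = 0.1, adjusted 0.15). The groups did not overlap in either ratio, and the directions were opposite. *Itgb7* had 9.49, 26.9 and 22.3 counts per 100 counts of *Itgb1* in WT and 134 and 128 in pools 2 and 7, a fold of 7.34 (exact p = 0.1, adjusted 0.15). *Itgb2* per *Itgb1* showed a fold of 6.56 with the same exact p of 0.1. Ratios to *Itgb1* also depend on the mix of cells in a library, since keratinocytes and fibroblasts express it. The keratinocyte sum was lower in pools 2 and 7, and its part in these ratios was not tested. *Selplg* per *Itgb2* overlapped between the groups (fold 1.14, exact p = 0.4), as did *Icam1* per *Vcam1* (fold 0.954, exact p = 1).

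Each gene was next set against the summed counts of the 34 pan-leukocyte genes in the same library. Of the 10 genes, 4 were higher in labelled *Rag1*-/- without overlap, 5 were lower and 1 overlapped. The 4 include *Madcam1*, which passed the filter for testing only through the labelled *Rag1*-/- pools. Over all tested genes 0.736% were higher and 85.9% lower without overlap on this scale. *Itgal* had 3.64, 3.77 and 3.68 counts per 100 pan-leukocyte counts in WT and 5.72 and 5.52 in labelled *Rag1*-/-, a fold of 1.52 with little spread within either group (exact p = 0.1, adjusted 0.15). *Itgb2* had 2.37, 1.74 and 2.03 in WT and 2.11 and 2.39 in pools 2 and 7, and these overlapped (fold 1.11, exact p = 0.4). On this scale the folds were 1.24 for *Itgb7* and 1.26 for *Selplg*, against 4.57 and 4.81 in edgeR on all counts. *Itgb7* had 4.91, 5.65 and 5.14 counts per 100 in WT and 5.85 and 7.14 in pools 2 and 7. *Selplg* had 4.56, 4.26 and 4.16 in WT and 4.59 and 6.45 in pools 2 and 7. For both genes pool 2 lay only just above the highest WT pool. *Itga4* had 0.839, 0.691 and 0.777 counts per 100 in WT and 0.366 and 0.242 in pools 2 and 7 (fold 0.388, exact p = 0.1). Its level per pan-leukocyte count was thus lower in both labelled *Rag1*-/- pools, while its CPM overlapped. The folds of *Itgb1*, *Icam1*, *Vcam1* and *Itgam* were 0.169, 0.215, 0.225 and 0.334. *Madcam1*, with 0.5 added to each count, stood 12.2-fold higher, with WT at its counting limit.

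**Figure D2:**
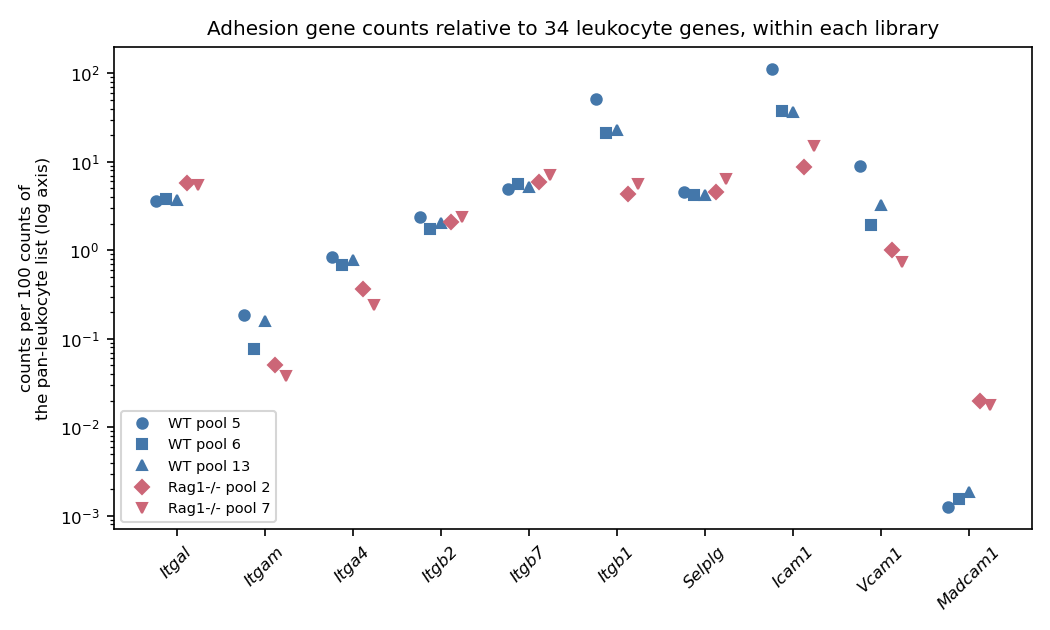
Counts of each adhesion gene per 100 counts of the 34 pan-leukocyte genes in the same library (log axis), with 1 point per pool and *Madcam1* plotted with 0.5 added to each count. *Itgal* lies at 3.64 to 3.77 in WT and 5.52 to 5.72 in labelled *Rag1*-/-, *Itgb2* overlaps, and *Itga4*, *Itgam*, *Itgb1*, *Icam1* and *Vcam1* lie lower in labelled *Rag1*-/-.

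The same scaling in edgeR, with libraries set equal on the pan-leukocyte genes, moved the median log2 fold change of all genes to -2.11. The median of the 10 adhesion genes was then -0.60. This scaling called 0.0842% of all genes higher and 66.4% lower. Of the 10 genes only *Madcam1* was then called higher (log2 fold change 4.19, adjusted p = 0.0104). *Itgal* (0.60, adjusted p = 0.42), *Itgb2* (0.14, adjusted p = 0.859), *Itgb7* (0.31, adjusted p = 0.683) and *Selplg* (0.35, adjusted p = 0.646) kept positive log2 fold changes without a call. *Itgb1* (-2.68), *Vcam1* (-2.43) and *Icam1* (-2.38) were called lower at adjusted p-values of 0.0046 to 0.009 in edgeR, each near the shift of all genes. *Itga4* (-1.34) and *Itgam* (-1.67) changed sign and were not called.

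**Figure D3:**
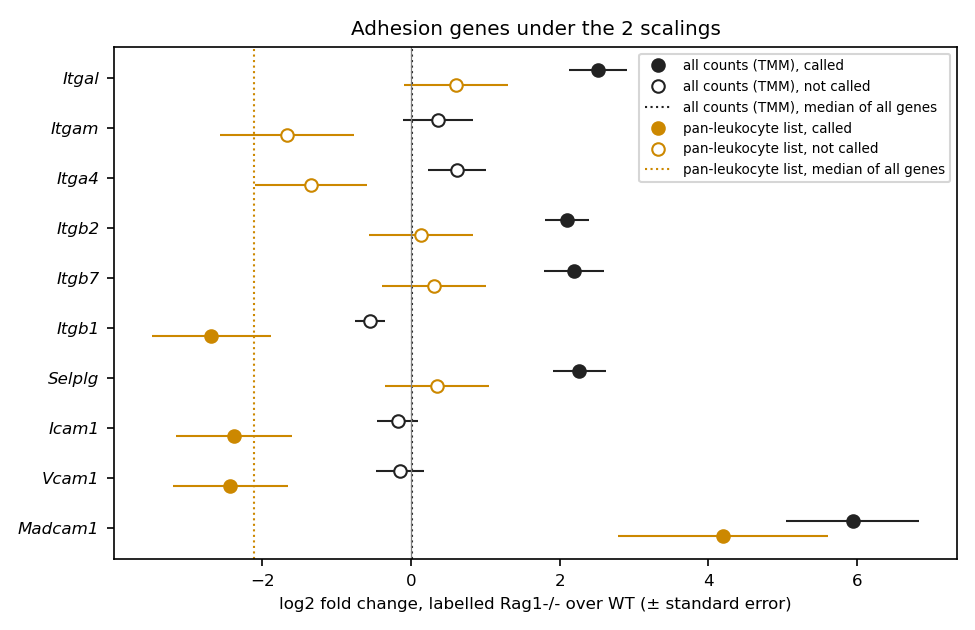
Log2 fold change of labelled *Rag1*-/- over WT (horizontal axis, points with standard errors) for the 10 adhesion genes, with libraries scaled on all counts by TMM or on the 34 pan-leukocyte genes; filled points passed the call rule and dotted lines mark the median of all genes. *Itgal*, *Itgb2*, *Itgb7* and *Selplg* lie between 2.10 and 2.51 under the first scaling and between 0.14 and 0.60 under the other, where the median of all genes is -2.11.

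Among 20 other integrin subunits, 1 rose, 3 fell and 16 did not pass the test, with a median log2 fold change of -0.18. By the same rule 3.57% of all genes tested were called higher and 2.16% lower. *Itgae*, the alpha chain that pairs with *Itgb7*, was at 82.4, 221 and 208 CPM in WT and at 957 and 779.5 CPM in labelled *Rag1*-/-. It rose by a log2 fold change of 2.38 (SE 0.42, adjusted p = 0.0309 by edgeR). Per 100 counts of *Itgb7* it had 162, 158 and 167 counts in WT and 207 and 163 in pools 2 and 7, which overlapped (fold 1.13, exact p = 0.2). Per 100 pan-leukocyte counts it had 7.98 to 8.94 in WT and 12.1 and 11.6 in pools 2 and 7 (fold 1.40, exact p = 0.1). The subunits that fell were *Itga6* (log2 fold change -1.60) and *Itgb4* (-1.50), which form the hemidesmosome integrin of basal keratinocytes, and the collagen receptor chain *Itga2* (-1.33), at adjusted p-values of 0.0306 to 0.036 in edgeR. Without pool 7 the call of *Itga2* was lost (adjusted p = 0.052 by edgeR). *Itga6* and *Itgb4* also stand on the keratinocyte list, whose 30 genes all had a negative log2 fold change.

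Genes linked to the switch of leukocyte integrins to the binding state from inside the cell had a median log2 fold change of 1.08. The list does not separate genes that promote this switch from genes that restrain it. Of 27 such genes 10 were called higher, 2 were called lower and 15 were not called. Across all genes tested the shares were 3.57% higher and 2.16% lower. Of the 15, *Tln1* passed on adjusted p (0.0438 by edgeR) but not on log2 fold change (0.95). *Rac2*, a small GTPase of blood cells, had a log2 fold change of 2.37 (SE 0.36) and the adaptor *Skap1* one of 2.30 (SE 0.46), at adjusted p-values of 0.0306 and 0.0372 in edgeR. Without pool 7 *Skap1* was not called (adjusted p = 0.0614 by edgeR). *Rapgef4*, an exchange factor for Rap1, had -1.73 (SE 0.32), and *Fermt1*, the kindlin of epithelia, -1.62 (SE 0.31), at adjusted p-values of 0.0336 and 0.0365 in edgeR. With scaling on the pan-leukocyte genes 0 of the 27 were called higher and 9 lower, against 0.0842% and 66.4% of all genes.

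Of 17 selectins and genes that build selectin ligands, 16 were tested, 5 rose, 0 fell and 11 did not pass the test. Their median log2 fold change was 0.92. The shares called among all genes tested were 3.57% higher and 2.16% lower. *Chst4* had 0 counts in all 5 libraries. *Spn* (CD43), a sialomucin of leukocytes, had a log2 fold change of 2.63 (SE 0.42, adjusted p = 0.0306 by edgeR). *Tpst2*, a sulfotransferase that can modify PSGL-1, and the sialyltransferase *St3gal3* had log2 fold changes of 1.45 and 1.18, at adjusted p-values of 0.0309 and 0.0479 in edgeR, and both turned negative with scaling on the pan-leukocyte genes (-0.56 and -0.91).

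Other ligands of these integrins were mostly without a call. Of 16, 13 were tested, 0 rose, 1 fell and 12 did not pass the test, with a median log2 fold change of 0.29. Among all genes tested 3.57% were called higher and 2.16% lower. *Thbs1* (thrombospondin 1) was at 3298, 3744 and 3624 CPM in WT and at 1663 and 1400.1 CPM in labelled *Rag1*-/-, a log2 fold change of -1.19 (SE 0.25, adjusted p = 0.0406 by edgeR). *Cdh1* (E-cadherin), the ligand of *Itgae* with *Itgb7*, was at 1400.2, 1319 and 918 CPM in WT and at 459 and 562 CPM in pools 2 and 7. Its groups did not overlap, but its log2 fold change of -1.21 (SE 0.29) had an adjusted p of 0.053 by edgeR, and it is one of the 30 keratinocyte genes. It was called lower by DESeq2 (-1.25, adjusted p = 0.0006) and by edgeR without pool 7 (-1.46, adjusted p = 0.0409). Fibronectin (*Fn1*, log2 fold change 0.07, adjusted p = 0.925 by edgeR) and complement *C3* (0.88, adjusted p = 0.22 by edgeR) did not pass the test. For *C3* this rests on single libraries, since its log2 fold change was 0.072 without pool 2 and 1.34 without pool 7, where edgeR called it (adjusted p = 0.0415).

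Of 11 matrix ligands of beta1 integrins 4 fell, 0 rose and 7 did not pass the test, with a median log2 fold change of -0.18. Among all genes tested 2.16% were called lower and 3.57% higher. Among those that fell were the laminin chains *Lama3* (log2 fold change -1.86), *Lama5* (-1.47) and *Lamb3* (-1.28) of the epidermal basement membrane, at adjusted p-values of 0.0306 to 0.0368 in edgeR. All 30 keratinocyte genes also had a negative log2 fold change (median -1.56), and their part here was not tested. The summed level of the 12 fibroblast markers was 7532 to 13464 CPM in WT and 8306 and 8038 CPM in pools 2 and 7, with 0 of 12 called.

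**Figure D4:**
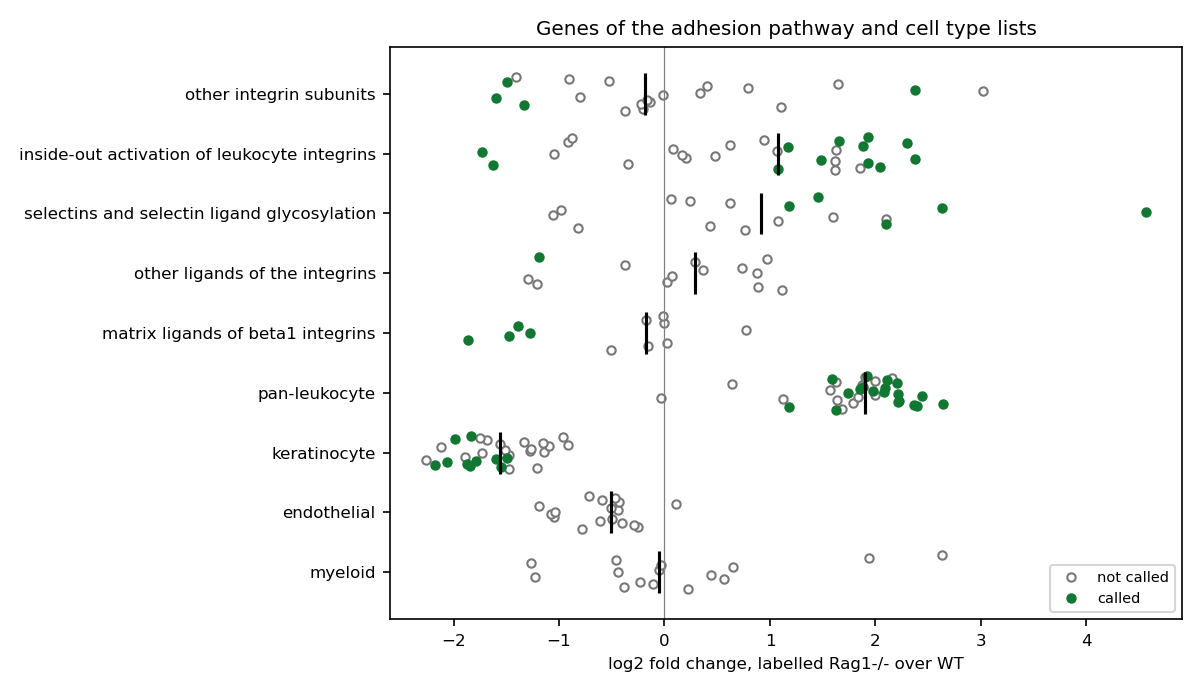
Log2 fold change of labelled *Rag1*-/- over WT (edgeR, TMM) of every tested gene in 5 adhesion gene lists and 4 cell type lists, with 1 point per gene, filled points for calls and a line at each median. The medians are 1.08 for inside-out activation, 0.92 for selectins and glycosylation, 0.29 for other ligands and -0.18 for both other subunits and matrix ligands, beside 1.90 for pan-leukocyte and -1.56 for keratinocyte genes.

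The pattern most like that of *Itgb2* was sought among 19001 tested genes by the root mean square difference of log2 CPM, each gene centred over the 5 libraries. *Kcnab2* (0.0796), *Limd2* (0.0828) and *Cd96* (0.0987) were nearest. Of the other adhesion genes *Selplg* (0.177), *Itgb7* (0.224) and *Itgal* (0.285) were closest to it in the same measure. Set among the 19001 genes they would rank 37, 90 and 205. For *Icam1* the nearest genes were *Mars* (0.0206), *Mex3d* (0.0329) and *Pold2* (0.045). The nearest adhesion gene was *Itgb1* (0.263), which would rank only 2611. *Limd2* ranged from 20.3 to 37.2 CPM in WT and was at 117 and 123 CPM in pools 2 and 7. The 5 points share libraries and depth, and the measure is a description.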

How the data were processed

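Sorted dILC2s from 3 WT and 2 *Rag1*-/- pools were sequenced from polyA RNA with an unstranded kit. The authors used STAR 2.5 for alignment (GRCm38) and featureCounts 1.5.0-p1, and deposited raw counts per gene. Annotation releases differ between the sources. They also deposited a normalized signal per symbol, used here only in an alternative. Totals were 8050562 to 39477243 counts per library. Libraries were grouped by the genotype label.

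Counts were filtered by filterByExpr, scaled by TMM and tested by quasi-likelihood (edgeR 4.0.16, R 4.3.3) with Benjamini-Hochberg adjustment. Where a symbol had several identifiers, the one with most counts was used. Ratios were compared with two-sided exact permutation tests after adding 0.5 to each count. The alternatives were DESeq2 1.42.0, limma 3.58.1 on log2 of the signal plus 1, RLE, library size alone, scaling on 34 pan-leukocyte genes, other filters, thinning, and each library left out. Exonic lengths came from GENCODE on GRCm38 and promoters from RefSeq.

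The genes, lists and motifs were chosen with earlier results of these data known. From each related list up to 4 genes were named, the 2 largest and 2 smallest log2 fold changes among those called or, with fewer than 2 calls, those with the highest CPM, with *Itgae* and *Cdh1* always named. A few genes that this rule names are not reported here. The *Itgae* ratios and the mast cell sum without *Kit* were added after the data were seen.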

Additional observations from a re-analysis of the deposited data

How the results depend on the processing

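All 10 adhesion genes kept direction and side of the threshold under DESeq2, limma on the deposited signal, RLE, library size alone and no filter, as did 9 of 9 tested with at least 10 counts in every library or with thinning. Across all genes, 1090 were called, against 2459 by DESeq2, 2645 without a filter, 12641 with scaling on the pan-leukocyte genes, and 0 to 2409 with each library left out. Of the adhesion genes, 5 were called higher, against 1 with pan-leukocyte scaling and 0 to 4 with each library left out, and 0 lower, against 3 and 0 to 0. With pan-leukocyte scaling the log2 fold change reversed for *Itgam* (-1.67), *Itga4* (-1.34), *St3gal3* (-0.91), *Tpst2* (-0.56), *Fn1* (-2.22) and *C3* (-1.43), since this scaling shifts all genes by a median of -2.11. *Fn1* was at -0.019 without a filter. Calls in the related lists moved most with that scaling, which called 0.0842% of all genes higher and 66.4% lower. They moved to 0 higher and 14 lower of 20 other integrin subunits and to 0 and 9 of 27 genes of the activation list. The selectin list moved to 1 and 6 of 16 tested, the other ligands to 0 and 7 of 13 tested and the matrix ligands to 0 and 10 of 11. DESeq2 called 15 genes of the activation list and 2 other subunits higher and 3 other ligands lower, against 10, 1 and 1. With each library left out, log2 fold changes ran from -0.58 to 0.11 for *Icam1*, -0.49 to 0.073 for *Vcam1*, -0.30 to 0.31 for *Fn1* and 0.072 to 1.34 for *C3*, and the log2 ratio of *Icam1* to *Vcam1* from -0.70 to 0.56. *St3gal3* lost its call with RLE, library size alone and thinning (adjusted p 0.0505 to 0.0555 in edgeR), and *Cdh1* gained one with limma, library size alone, no filter, at least 10 counts and thinning. The cause was not tested for these. In those fits a group left with 1 pool was taken to vary like the other group. No paired analysis was possible because the groups share no replicate number. Depth limits *Madcam1*, whose WT counts were at or under 3, and the 8050562 counts of *Rag1*-/- pool 2.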

Other observations

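Markers of other lymphocytes and of mast cells were also read. Of 14 tested T cell genes 5 were called higher in labelled *Rag1*-/- (*Cd3g*, *Cd247*, *Trac*, *Trbc2* and *Lat*) and 0 lower, with a summed level of 81.0 to 172 CPM in WT and 521 and 466 CPM in pools 2 and 7. Of 9 tested NK and ILC1 genes 3 were called higher (*Prf1*, *Gzma* and *Nkg7*) and 0 lower, with a summed level of 34.9 to 107 CPM in WT and 257 and 319 CPM in pools 2 and 7. By this rule 3.57% of all genes were called higher and 2.16% lower. With pan-leukocyte scaling 0 T cell genes were called higher and 2 lower, and 1 NK and ILC1 gene was called higher and 0 lower. That scaling called 0.0842% of all genes higher and 66.4% lower. *Klra8* had 0 counts in all 3 WT pools and in pool 2, and 31 in pool 7. Of 9 mast cell genes 0 were called, the median log2 fold change was -0.48 and 2 genes were above 0. Their sum was 185 to 308 CPM in WT and 618 and 455 CPM in pools 2 and 7, but without *Kit*, which lymphoid cells can also express, it was 129 to 159 CPM in WT and 83.97 and 119 CPM in pools 2 and 7. The part of these lists in the levels of the adhesion genes was not tested.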
